A study of Mus musculus with 9 samples.

Results

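Acute loss of Foxn1 was compared with a lower dose of a Foxn1 transgene in sorted cortical thymic epithelial cells (cTEC) of mice, over 16 of the 20 RNA libraries of the study. For every gene the change after deletion (Foxn1-deleted minus floxed control) and the change with dose (heterozygous minus homozygous transgene) were taken each within their own experiment, and the deletion change minus the dose change was tested in a single model of the 16 libraries. Of the 38720 genes listed, 26716 had counts in these libraries and 16115 passed the filter on low counts, and 1077 of those had a called difference between the changes (adjusted p below 0.05). The deletion experiment held 5 Foxn1-deleted libraries, from mice homozygous for the beta5t-rtTA locus and for floxed Foxn1 and carrying a heterozygous tetO-Cre transgene, and 5 control libraries of the same genotype lacking tetO-Cre. Both of its groups were taken 72 h after doxycycline, which lets rtTA drive Cre and remove exons 7 to 8 of Foxn1 in cells that use the beta5t promoter. The dose experiment held 3 libraries heterozygous and 3 homozygous for a Foxn1 transgene on an artificial chromosome (BAC, written wt* by the submitters), both on the nude (nu/nu) background, which has no functional Foxn1 of its own, and no treatment is named for them. All cells were sorted as CD45-, EpCAM+, MHCII+, Ly51+, UEA1- cells and their polyadenylated RNA was sequenced. Genotype, doxycycline, the length of the loss and the breeding background all differ between the experiments and cannot be told apart. The sources used here do not give ages, sexes or the number of mice, so p-values measure the spread between libraries, which may be technical.

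Foxn1 is a forkhead transcription factor that thymic epithelium needs to form and to keep its function, and mice without it are nude and have no functional thymus. Cortical epithelial cells attract blood-borne progenitors with chemokines, commit them to the T lineage with the Notch ligand Dll4, and display peptides made by a dedicated proteasome and by lysosomal proteases on MHC molecules so that immature thymocytes can be selected.

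Library totals ran from 20719630 to 22372633 counts. Foxn1 itself stood at 351 to 579 CPM (counts scaled to a common library total) in controls and 361 to 538 in deleted libraries. Counts for the whole gene do not show whether 2 exons are missing, so they do not check the deletion. With dose, Foxn1 was 1484, 1299 and 1311 CPM in homozygous and 1144, 1209.5 and 1144 CPM in heterozygous libraries. The change was -0.35 ± 0.06 (log2 with its standard error SE, adjusted p = 0.00143 by edgeR). By that fit, which normalizes the libraries further than CPM does, the homozygous level was 1.27 times the heterozygous one. The low dose is called low beside the homozygous libraries. Heterozygous libraries averaged 1166 CPM of Foxn1 and floxed controls 454 CPM, scaled by library totals alone and not tested against each other. Counts for the whole gene do not separate transgene RNA from RNA of the nude allele, so functional Foxn1 was not compared. Psmb11 encodes the cortex-specific proteasome subunit beta5t, at whose locus both floxed groups carry rtTA on both alleles. It stood at 0.4103 to 1.79 CPM in controls against 961 to 1053 CPM in homozygous transgenic libraries, so its deletion change is not read here. Xist and transcripts of the Y chromosome were found in all 4 groups: Xist averaged 348 CPM in controls and 855 CPM in deleted libraries, Ddx3y of the Y chromosome 53.8 and 29.4 CPM, and the 5 sex-linked transcripts tested had no call after deletion and no called difference. Markers of other cells were not alike in the groups. The summed CPM of 20 thymocyte markers was 139 to 979 in controls and 136 to 721 in deleted libraries, 138 to 199 in homozygous and 48.4 to 60.2 in heterozygous libraries. All 20 thymocyte markers fell with dose, 1 fell after deletion (Ptcra), and none had a called difference between the changes by edgeR, though 8 had an unadjusted p below 0.05 and DESeq2 called 3. A standard error combined from the separate fits called 12 of them higher, and a fit with the library number as a replicate block 13 higher with 8 falls after deletion, while limma-voom called no difference. The summed CPM of 13 fibroblast markers was 497 to 1010 in controls, 975 to 1672 in deleted, 151 to 155 in homozygous and 369 to 382 in heterozygous libraries. In bulk RNA, fewer cells of a type and less RNA per cell cannot be told apart.

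After deletion 41 genes rose (0.254% of genes tested) and 264 fell (1.64%), by edgeR's quasi-likelihood test with Benjamini-Hochberg adjustment. With the lower dose 4075 rose (25.3%) and 4164 fell (25.8%). Changes with dose always compare heterozygous with homozygous libraries, so a rise with dose means a higher level at the low dose. The number of calls depends on the spread: the median SE of a log2 change was 0.151 for deletion with 5 libraries a group and 0.09 for dose with 3. Most deletion calls were also dose calls in the same direction. Of the 264 falls 236 (89.4%) also fell with dose and 11 rose with it. Of the 41 rises 22 (53.7%) also rose with dose and 4 fell. Across the 16115 genes the 2 changes had a Pearson r of 0.484 and a Spearman rho of 0.53, as a description, since genes are not independent replicates. No library is shared by the 2 experiments.

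The difference between the changes was called higher (the deletion change above the dose change) in 495 genes (3.07%) and lower in 582 (3.61%). Without normalization factors the median dose change of all genes moved from 0.012 to 0.134, and the share of lower calls moved from 54% to 69.5% for the difference and from 50.5% to 32.8% for dose. From the 3 tests each gene was put in a class. The low dose only class holds genes called with dose, not called after deletion, and with a called difference in which the dose change is the larger. It has 981 genes (6.09% of genes tested), 527 higher and 454 lower at the low dose. For 674 of them, 275 higher and 399 lower, the 95% interval of the deletion change lay within a log2 change of -1 to 1, and for the other genes a change of that size after deletion was not excluded by the libraries. The deletion only class, its mirror image, has 13 genes (0.0807%). The opposite class, called in all 3 tests with opposite directions, has 15 genes (0.0931%). The shared class has 236 genes called in the same direction in both experiments with no called difference (1.46%), and 10 more fell further after deletion (0.0621%) and 12 changed more at the low dose (0.0745%). A miss of the threshold in 1 experiment does not show that a gene did not change there.

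The scatter of the 2 changes shows these classes, with low dose only genes spread along the dose axis.

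**Figure D1:**
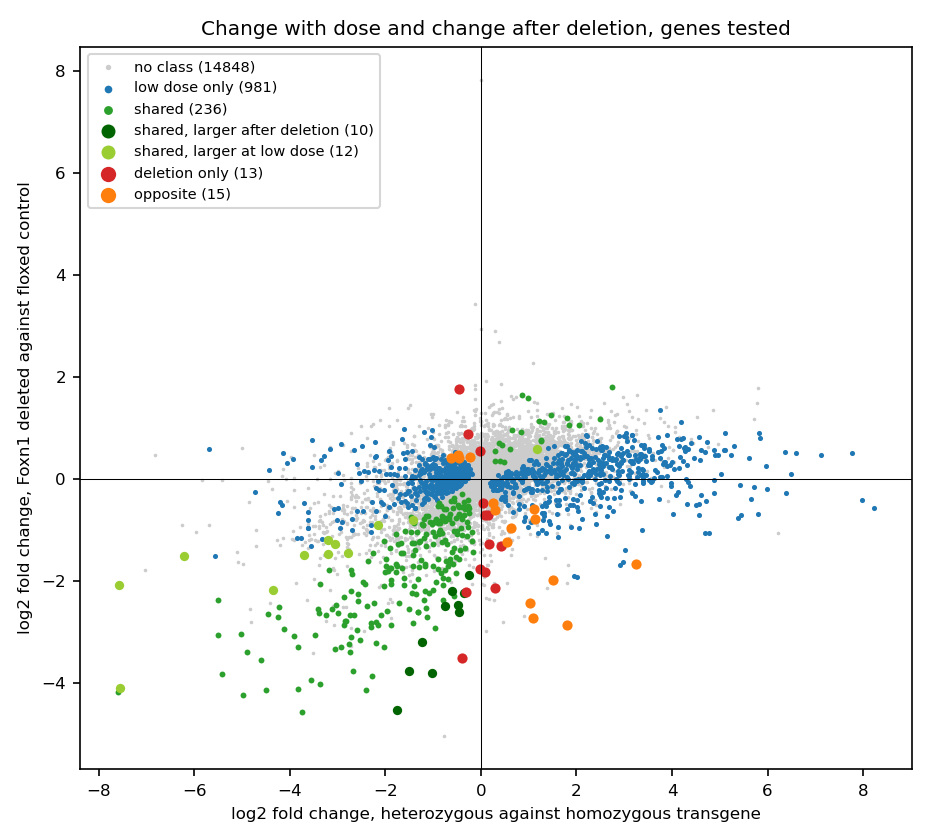
Each point is 1 of the 16115 genes tested. The horizontal axis gives the log2 fold change of heterozygous against homozygous transgenic cTEC, the vertical axis that of Foxn1-deleted against control cTEC, and colours mark the classes, with their number of genes in the legend. The 981 low dose only genes lie along the horizontal axis, and the 236 shared genes lie mainly at lower left, where both changes are negative.

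Single libraries moved these counts. The low dose only class had 561 genes without heterozygous library 3, 571, 562 and 549 without homozygous library 1, 2 or 3, and 1773 without control library 5. The difference was called higher in 890 genes and lower in 1031 without control library 5, and in 280 and 312 without homozygous library 3. Deletion calls numbered 936 without control library 2, 91 without control library 3, and 49, 139, 110, 61 and 67 without deleted libraries 1 to 5. Of the 981 low dose only genes 433 kept the class whichever library was left out, against 31 of the 236 shared genes and none of the 13 deletion only and the 15 opposite genes.

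The promoters of 4 genes that lead their classes are shown because they hold the letters GACGC, known as the core of Foxn1's binding sequence, on either strand. Cpeb1 is low dose only, Atp2b1 and Anxa5 are opposite in their 2 directions, and Ppp1r27 is shared. Each is 300 bases, from 250 before to 50 after the gene's start, from RefSeq on GRCm38.p6, 5′ to 3′ on the gene's strand, and the capitals mark GACGC or its reverse complement GCGTC.
Cpeb1, chr7:81454709-81455008, minus strand: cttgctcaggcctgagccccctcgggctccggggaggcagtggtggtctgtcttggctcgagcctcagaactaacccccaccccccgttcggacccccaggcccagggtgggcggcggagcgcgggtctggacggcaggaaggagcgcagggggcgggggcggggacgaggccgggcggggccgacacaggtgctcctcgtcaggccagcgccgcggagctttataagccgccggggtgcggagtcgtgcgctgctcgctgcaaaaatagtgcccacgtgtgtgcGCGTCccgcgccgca
Atp2b1, chr10:98914392-98914691, plus strand: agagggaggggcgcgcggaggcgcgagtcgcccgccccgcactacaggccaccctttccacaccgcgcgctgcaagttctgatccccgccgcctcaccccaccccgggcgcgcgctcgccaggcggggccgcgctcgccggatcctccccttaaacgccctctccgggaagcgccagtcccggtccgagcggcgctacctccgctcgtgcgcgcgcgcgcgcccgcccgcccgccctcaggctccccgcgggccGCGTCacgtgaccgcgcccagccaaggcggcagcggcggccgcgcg
Anxa5, chr3:36475838-36476137, minus strand: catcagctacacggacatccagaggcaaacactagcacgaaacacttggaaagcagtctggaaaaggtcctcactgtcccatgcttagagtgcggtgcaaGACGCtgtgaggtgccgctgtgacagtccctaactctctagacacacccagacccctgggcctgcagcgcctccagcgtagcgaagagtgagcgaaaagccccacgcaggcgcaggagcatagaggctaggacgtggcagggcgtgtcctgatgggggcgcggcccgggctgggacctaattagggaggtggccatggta
Ppp1r27, chr11:120551083-120551382, minus strand: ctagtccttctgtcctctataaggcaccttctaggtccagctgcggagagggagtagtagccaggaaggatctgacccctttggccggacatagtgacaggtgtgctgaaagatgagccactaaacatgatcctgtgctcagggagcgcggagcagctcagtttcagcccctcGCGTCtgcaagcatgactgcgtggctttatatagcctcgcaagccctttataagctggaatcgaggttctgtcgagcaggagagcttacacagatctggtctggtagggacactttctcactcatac
The letters stood in 27.4% of the 27025 promoters in the table and in 44% of the 11210 that belong to tested genes. They were in 127 of 372 promoters of low dose only genes that were higher at the low dose (34.1%), 145 of 348 of those that were lower (41.7%) and 64 of 145 of the shared falls (44.1%). They were in 4 of 5 promoters of genes that fell further after deletion (80%), 3 of 10 of those that fell further at the low dose (30%), 1 of 8 of the deletion only falls (12.5%) and 0 of 1 of the deletion only rises. For opposite genes they were in 3 of 7 promoters of those higher at the low dose (42.9%) and 1 of 3 of those lower (33.3%). The shared rises had them in 5 of 10 (50%), and the rise that was larger at the low dose in 1 of 1. A match describes these letters in this window and is no evidence of binding.

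The shared class held 2 of 19 tested ligands, chemokines and cytokines for thymocytes, 6 of 21 cTEC identity genes, 3 of 22 MHC class II pathway genes, 0 of 31 proteasome subunits and 0 of 17 MHC class I pathway genes. Dll4 stood at 174, 127, 268, 157 and 424 CPM in controls and 22.5, 41.9, 43.5, 27.3 and 31.03 CPM in deleted libraries. It was 538, 507 and 505 CPM in homozygous and 115, 121 and 106 CPM in heterozygous libraries. Neither pair of groups overlapped, and the changes were -2.83 ± 0.35 after deletion (adjusted p = 0.00929) and -2.30 ± 0.06 with dose (adjusted p = 1.05e-08). Their difference was -0.53 (95% interval -1.50 to 0.45, adjusted p = 0.585). Prss16, a serine protease of the cortex, changed by -3.40 ± 0.40 and -4.89 ± 0.18, the lysosomal protease Ctsl by -1.46 ± 0.30 and -2.25 ± 0.10, and Cd83, which stabilises MHC class II on the surface, by -2.94 ± 0.40 and -4.12 ± 0.15. None of these 3 had a called difference (adjusted p = 0.114, 0.301 and 0.249). The chemokine Cxcl12 changed by -1.77 with dose (adjusted p = 2.06e-07), and its deletion change of -0.92 ± 0.21 missed the threshold (adjusted p = 0.0564) although the 5 control libraries (1043 to 2379 CPM) lay above all deleted ones (774 to 918 CPM). The other shared falls of largest size were Ppp1r27, Slc22a7, Neu2, Tbata and Crip3, with deletion changes of -4.23, -4.16, -4.14, -4.11 and -3.81. Shared rises were fewer and were led by Cck (cholecystokinin), Zbtb7c, Edn1 (endothelin 1), AI427809 and Ptger4, a prostaglandin E2 receptor. Ptger4 went from 32.4, 36.3, 23.9, 31.2 and 14.9 CPM in controls to 73.5, 57.9, 41.2, 55.02 and 76.7 CPM in deleted libraries, and from 9.63, 8.07 and 9.65 CPM in homozygous to 24.6, 24.9 and 25.1 CPM in heterozygous libraries. The groups were apart in both experiments, as the naming rule required, and the changes of 1.12 and 1.32 differed by -0.21 ± 0.32.

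Ccl25, the chemokine that draws CCR9-bearing progenitors, fell in both experiments and fell further at the low dose. Its level was 1336, 546, 1603, 746 and 2706 CPM in controls and 52.7, 123, 106, 37.2 and 102 CPM in deleted libraries. In the transgenic libraries it was 1039.6, 878 and 1214 CPM in homozygous and 5.67, 6.35 and 6.104 CPM in heterozygous ones. No groups overlapped. The changes were -4.09 ± 0.51 (adjusted p = 0.00929) and -7.55 ± 0.14 (adjusted p = 2.32e-09), and their difference was 3.47 ± 0.68 (adjusted p = 0.00695), called whichever library was left out. The remaining 11 genes of this kind were Fgf14, Itgbl1, Isg20, Pds5b, Got1, Srxn1, Casz1, Slc2a8, Dtx4, Arhgef10l and, as the only rise, Arhgef28. Fgf14, an intracellular FGF family member, fell from 168, 113, 229, 117 and 345 to 39.6, 64.2, 43.5, 42.9 and 47.8 CPM after deletion, while the transgenic groups held 156, 156 and 159.7 CPM and 0.777, 0.649 and 1.24 CPM. Its changes of -2.07 and -7.58 differed by 5.51 ± 0.55 (adjusted p = 0.000116), and the class was lost only without deleted library 1. Pds5b, a cohesin regulator, changed by -1.19 and -3.21, and its class was lost without control library 3 or deleted library 1, 3, 4 or 5.

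The 10 genes that fell further after deletion were Gper1, Fer1l6, Creg2, Csdc2, Rbm20, Slc46a2, Actn3, Col8a2 and the predicted genes Gm14207 and 2310007L24Rik. Gper1, a membrane receptor for estrogen, stood at 76.04, 55.02, 127, 62.8 and 180.0 CPM in controls and 1.57, 3.88, 6.75, 2.76 and 7.34 CPM in deleted libraries. It was 69.6, 68.3 and 68.6 CPM in homozygous and 22.02, 16.4 and 27.6 CPM in heterozygous libraries. All groups were apart, the changes were -4.53 ± 0.49 and -1.77 ± 0.14, and the difference was -2.77 ± 0.61 (adjusted p = 0.0138). Rbm20, a splicing regulator, changed by -2.46 after deletion and by -0.47 with dose, and like Gper1 it kept its class in all 16 fits that left out 1 library each (leave-one-out fits). The dose groups of Csdc2, Col8a2 and 2310007L24Rik overlapped. Slc46a2 is a solute carrier typical of cTEC, also known as TSCOT. It ranged from 344 to 1079 CPM in controls and from 112 to 165 CPM in deleted libraries, and from 1084 to 1119 CPM in homozygous and 729.9 to 866 CPM in heterozygous ones. The groups were apart in both experiments, and the difference of -1.58 (adjusted p = 0.0306) held in 8 of the 16 leave-one-out fits.

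The largest low dose only rises were in genes near silence in homozygous cTEC, with group means there from 0.138 CPM (Abca8a) to 1.53 CPM (Cxcl14). They included Sln, Otog, Kif19a, Cxcl14, Fam107a, Sim1 and Abca8a, with dose changes from 5.45 (Cxcl14) to 6.59 (Fam107a). Otog, which encodes the inner ear protein otogelin, was 0.1402, 0.363 and 0.1902 CPM in homozygous and 18.6, 24.7 and 26.9 CPM in heterozygous libraries. After deletion it was 0.323, 0.365, 0.431, 0.413 and 0.917 CPM against 0.594, 0.547, 0.135, 0.997 and 0 CPM in controls, so both groups lay near the homozygous level and overlapped. Its difference was -6.41 ± 0.89 (adjusted p = 0.0008). Abca8a, a lipid transporter, was 0.0476 to 0.227 CPM in homozygous and 11.6 to 14.7 CPM in heterozygous libraries. In this case the controls (7.04, 2.55, 2.35, 3.53 and 1.92 CPM) and deleted libraries (9.27, 1.96, 5.03, 3.58 and 5.41 CPM) both lay between the transgenic groups and overlapped each other. Cxcl14, a chemokine of epithelia, was 72.2 to 74.5 CPM in heterozygous libraries and ranged from 0.767 to 16.9 CPM in controls and from 1.01 to 13.5 CPM in deleted libraries, and its call (adjusted p = 0.0146) held in 14 of the 16 leave-one-out fits.

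The largest low dose only falls included Casp1, Ebf1, Cdh8, Trdn, Pcdh15, S1pr1 and Cpeb1. Casp1, the protease that matures interleukin 1, stood at 6.68, 5.39 and 6.37 CPM in homozygous and 0.457, 0.278 and 0.459 CPM in heterozygous libraries. In the deletion experiment it was 16.95, 8.43, 22.4, 13.5 and 16.6 CPM in controls and 19.7, 12.4, 15.9, 22.6 and 29.4 CPM in deleted libraries, which overlapped. The changes were -4.05 ± 0.22 with dose and 0.32 ± 0.28 after deletion, and the difference was 4.37 ± 0.50 (adjusted p = 0.000237). S1pr1, a receptor for sphingosine 1-phosphate, stood at 9.12 to 10.8 CPM in homozygous, 0.551 to 0.685 CPM in heterozygous, 4.12 to 14.97 CPM in control and 4.596 to 11.7 CPM in deleted libraries, and only the dose groups were apart. The calls of Casp1, Ebf1, Pcdh15, S1pr1 and Cpeb1 held in all 16 leave-one-out fits, that of Cdh8 in 12 and that of Trdn in 4.

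Proteasome subunits of the standard particle fell with dose, and for many of them the fall was larger than after deletion. All 31 fell with dose and none passed the threshold after deletion (22 had an unadjusted p below 0.05, and DESeq2 called 3, all lower), and 14 of 31 had a called difference, all higher, where 3.07% of genes tested did. All 31 deletion changes were negative. The list medians were -0.265 after deletion and -0.79 with dose, beside 0.013 and 0.012 over all genes tested. Psmd3, a lid subunit of the 19S cap, stood at 254, 248 and 251 CPM in homozygous and 163, 161 and 157 CPM in heterozygous libraries, which were apart. Controls held 133, 147, 141, 128 and 158 CPM and deleted libraries 118, 137, 132, 131 and 142 CPM, which overlapped, and all of these but control library 5 lay below every heterozygous library. Its changes were -0.77 ± 0.04 with dose and -0.13 ± 0.08 after deletion, and the difference was 0.64 ± 0.11 (adjusted p = 0.00259). Psmc6, an ATPase of the cap, changed by -0.62 ± 0.05 and -0.08 ± 0.07 (difference 0.53, adjusted p = 0.00273). For some subunits the deletion change was itself large: Psmb4 changed by -0.77 ± 0.19 after deletion with groups apart (adjusted p = 0.0717), against -1.47 ± 0.04 with dose, and had no called difference (adjusted p = 0.135). The count of 14 was 7, 9 and 5 without heterozygous library 1, 2 or 3, 6, 5 and 5 without homozygous library 1, 2 or 3, 9 without deleted library 2 or 5, and 29 without control library 5.

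Genes that present antigen on MHC class II fell with dose, most of them without a call after deletion. Of 22 tested genes 16 fell and 4 rose with dose, 3 fell after deletion (Ctsl, Cd83 and Prss16), and 10 had a called difference that was higher and 1 lower. The 10 were Cd74 (the invariant chain), H2-Eb1, H2-Ab1 and H2-Aa (chains of the presenting molecules), H2-DMa and H2-DMb2 (peptide exchange), H2-Oa, and the lysosomal enzymes Ctsd, Lgmn and Ifi30. H2-Eb1 stood at 1383, 1387 and 1375 CPM in homozygous and 1212, 1107 and 1115 CPM in heterozygous libraries. It was 1791, 1621, 1684, 1802 and 1461 CPM in controls and 2073, 1813, 2089.6, 2121 and 2307 CPM in deleted libraries. Here the groups were apart in both experiments and in opposite directions, but the deletion change of 0.30 ± 0.09 missed the threshold (adjusted p = 0.134) beside -0.39 ± 0.06 with dose (adjusted p = 0.000383). The difference was 0.69 ± 0.12 (adjusted p = 0.00417). Cd74 changed by -0.57 ± 0.06 with dose and 0.05 ± 0.12 after deletion (difference 0.62, adjusted p = 0.0206), and H2-Oa, a brake on peptide exchange, by -0.75 ± 0.14 and 0.20 ± 0.09 (difference 0.94, adjusted p = 0.00674). Ciita, the master activator of these genes, was 332 to 407 CPM in controls and 292 to 374 CPM in deleted libraries, changed by -0.21 with dose (adjusted p = 0.0343), and had no called difference (adjusted p = 0.842). The cathepsin Ctsz was the member that went the other way, with 1.33 ± 0.09 with dose and 0.21 ± 0.17 after deletion. Ctsz's difference was -1.12 (adjusted p = 0.0145). The count of 10 was 4 and 5 without heterozygous library 2 or 3, 4, 5 and 4 without homozygous library 1, 2 or 3, and 6 when no normalization factors were used.

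In the MHC class I pathway 11 of 17 genes fell and 2 rose with dose, and none passed the threshold after deletion (5 at an unadjusted p below 0.05, 3 by DESeq2). The heavy chains H2-K1 and H2-D1, the light chain B2m and the loading factor Tapbp had a higher difference, and the proteasome activator Psme1 a lower one. B2m was 620.4, 578 and 688 CPM in homozygous and 415, 259.5 and 348 CPM in heterozygous libraries, which were apart. Controls (1249 to 2322 CPM) and deleted libraries (1600.4 to 2849 CPM) lay far above both and overlapped. Its difference of 1.29 ± 0.31 (adjusted p = 0.0217) held in 12 of the 16 leave-one-out fits, and the list's count of 4 was 0 without heterozygous library 2 or 3 or homozygous library 3, 1 without homozygous library 1 and 2 without homozygous library 2. Psmb8, Psmb9 and Psmb10, the immunoproteasome subunits, had no called difference (adjusted p = 0.313, 0.743 and 0.498).

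Interferon-inducible genes fell with dose and showed no call after deletion. Of 22 tested genes 15 fell with dose and none rose, none passed the threshold after deletion (7 at an unadjusted p below 0.05, and 3 called higher by DESeq2), and 11 had a called difference, all higher, among them Ifit3, Ifi44, Ifih1, Oasl2, Rsad2, Gbp2, Gbp3, Usp18, Bst2 and Xaf1. Rsad2, an antiviral enzyme, was 27.2, 24.1 and 24.4 CPM in homozygous and 14.4, 7.69 and 9.73 CPM in heterozygous libraries. It was 37.4, 54.02, 62.7, 56.1 and 45.01 CPM in controls and 39.8, 67.2, 50.1, 71.2 and 65.9 CPM in deleted libraries. Only the dose groups were apart. The changes were -1.37 ± 0.19 with dose and 0.18 ± 0.17 after deletion (difference 1.55 ± 0.30, adjusted p = 0.00612). The list's count lay between 9 and 13 in the 16 leave-one-out fits, and its medians were 0.189 after deletion and -0.615 with dose. Macrophages and dendritic cells also use these genes. Their 15 markers, 12 of them tested, had a summed CPM of 24.2 to 28.3 in homozygous and 25.2 to 28.5 in heterozygous libraries, against 29.8 to 84.6 in controls and 32.4 to 107 in deleted ones. For B cells the sum of 9 markers, 5 of them tested, was 4.96 to 5.66 in homozygous and 0.788 to 2.15 in heterozygous libraries, with 9.14 to 13.4 in controls and 12.4 to 27.6 in deleted ones. The part of these cells in the result was not tested.

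**Figure D2:**
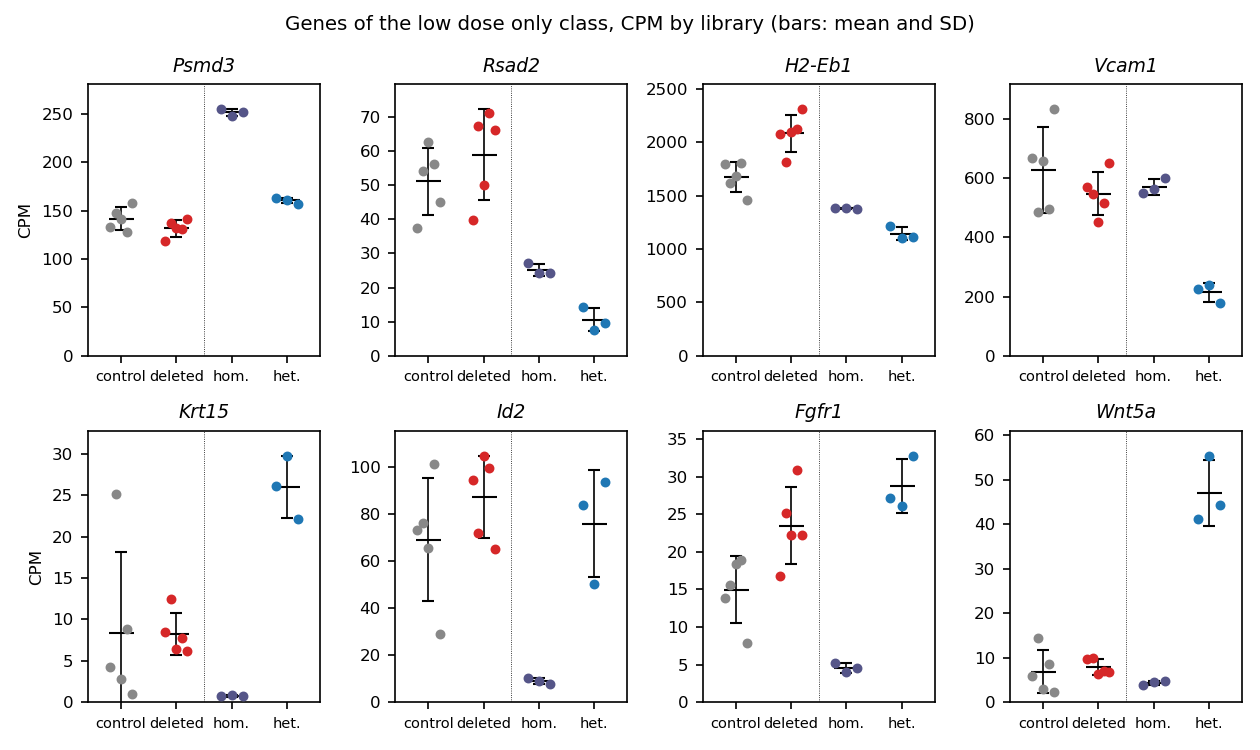
CPM in each library of 8 low dose only genes, with control and Foxn1-deleted libraries left of the dotted line and homozygous (hom.) and heterozygous (het.) transgenic libraries right of it. Points are libraries, and bars give the mean and SD. Psmd3, Rsad2, H2-Eb1 and Vcam1 are lower in every heterozygous than in every homozygous library and Krt15, Id2, Fgfr1 and Wnt5a higher, while the control and deleted libraries overlap for all of them but H2-Eb1.

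Among the signals given to thymocytes, 11 of 19 tested ligands, chemokines and cytokines fell and 2 rose with dose, 3 fell after deletion, and 3 had a higher and 1 a lower difference. Vcam1, an adhesion molecule for thymocytes, fell with dose from 549, 562 and 600.5 to 227, 239.5 and 178 CPM. It was 667, 484, 658, 493 and 832 CPM in controls and 568, 547, 452, 514 and 650.0 CPM in deleted libraries, which overlapped. The difference was 1.30 ± 0.25 (adjusted p = 0.00603). Kitl, the ligand of Kit on progenitors, changed by -1.30 ± 0.08 with dose and -0.16 ± 0.22 after deletion (adjusted p = 0.0386 for the difference, kept in 6 of the 16 leave-one-out fits). Jag1, a Notch ligand, rose with dose by 1.41, and its deletion change of 0.60 ± 0.15 missed the threshold (adjusted p = 0.0717) with the groups apart. Jag1's difference was kept in 3 of the 16 fits. Il7 had changes of -0.14 and -0.21 and no called difference (adjusted p = 0.872). On the cTEC identity list 8 of 21 genes fell after deletion and 15 fell with dose, and only Ccl25, Kitl, Slc46a2 and the tendon and cTEC factor Scx had a called difference. The difference of Scx held in 4 of the 16 leave-one-out fits. The 2 lower calls on this list were 0 without any 1 heterozygous or homozygous library or deleted library 4 or 5, and the 2 higher calls were 9 without control library 5 and 1 without any 1 heterozygous or homozygous library. The surface marker Ly75 was shared, with -0.85 ± 0.18 and -1.39 ± 0.09. Krt8 and Krt18, the keratins of the cortex, changed by -1.51 ± 0.06 and -1.53 ± 0.06 with dose and -0.81 ± 0.24 and -0.77 ± 0.24 after deletion (adjusted p = 0.113 and 0.123).

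The basal keratins Krt5, Krt14 and Krt15 rose with dose without a call after deletion. On the list of progenitor and basal genes 10 of 18 rose and 5 fell with dose, none passed the threshold after deletion (4 at an unadjusted p below 0.05, 3 by DESeq2), and 4 had a lower difference (Krt5, Krt14, Krt15 and Cldn3) and 1 a higher one (Lamb3). Krt15, a basal keratin, was 0.795, 0.907 and 0.713 CPM in homozygous and 26.1, 29.7 and 22.1 CPM in heterozygous libraries. It was 4.296, 25.1, 2.796, 8.84 and 1.03 CPM in controls and 8.49, 12.5, 6.46, 7.76 and 6.23 CPM in deleted libraries, which overlapped, with control library 2 at the heterozygous level. The changes were 4.88 ± 0.17 with dose and -0.01 ± 0.64 after deletion (difference -4.90 ± 1.01, adjusted p = 0.00902). Krt14 was 40.3, 40.3 and 39.9 CPM in homozygous and 213, 194 and 183 CPM in heterozygous libraries. It was 140.0, 169, 149, 147 and 77.3 CPM in controls and 232, 208, 183, 234 and 266 CPM in deleted ones. Its groups were apart in both experiments, upward in both, with a deletion change of 0.70 ± 0.17 that missed the threshold (adjusted p = 0.0695) and a dose change of 2.17 ± 0.07 (difference -1.47, adjusted p = 0.00239). Krt5 changed by 2.40 ± 0.10 with dose and 0.10 ± 0.40 after deletion (difference adjusted p = 0.0242, kept in 11 of 16 fits). Trp63, the regulator of basal epithelium, changed by 0.32 ± 0.05 and 0.10 ± 0.17 with no called difference (adjusted p = 0.648). The medullary (mTEC) identity list shares Krt5, Krt14 and Cldn3, and they were its 3 called differences of 19, all lower. Without heterozygous library 1 or 2 or any 1 homozygous library 1 of the 3 was left. With dose 9 of the 19 rose and 6 fell, and none passed the threshold after deletion (5 at an unadjusted p below 0.05, 4 by DESeq2). On the list of simple keratins and junctions 7 of 20 rose and 9 fell with dose, none passed the threshold after deletion (7 at an unadjusted p below 0.05, 3 by DESeq2), and Krt19, Krt23 and Ocln had a lower and Krt7 a higher difference. Krt7 ranged from 158 to 173 CPM in homozygous and from 56.5 to 108 CPM in heterozygous libraries, which were apart, and controls (324 to 563 CPM) and deleted libraries (450.0 to 651 CPM) overlapped. The 4 lower calls of the basal list were 2 without heterozygous library 1 or 2 or any 1 homozygous library, and the 3 of simple keratins and junctions were 0 without heterozygous library 2 or 3 or homozygous library 1 or 2.

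Of 23 genes of BMP, TGF-beta and FGF signalling 12 rose and 4 fell with dose, none passed the threshold after deletion (7 at an unadjusted p below 0.05, 3 by DESeq2), and 6 had a lower and 1 a higher difference. Bmp4, its antagonist Fst, the BMP targets Id1, Id2 and Id3, and the receptor Fgfr1 were the 6, and the receptor Fgfr2 was the other. Id2 was 10.4, 8.97 and 7.94 CPM in homozygous and 83.7, 50.3 and 93.4 CPM in heterozygous libraries. It was 73.1, 76.2, 65.3, 101 and 29.01 CPM in controls and 94.4, 71.95, 105, 99.5 and 65.2 CPM in deleted libraries, which overlapped near the heterozygous level. The changes were 2.93 ± 0.22 and 0.33 ± 0.26 (difference -2.61 ± 0.42, adjusted p = 0.0022). Fgfr1 changed by 2.52 ± 0.13 with dose and 0.63 ± 0.22 after deletion (difference -1.89, adjusted p = 0.00273). Fgfr2, the receptor for the thymic epithelial growth factors Fgf7 and Fgf10, fell with dose from 365, 368 and 370.1 to 277, 327 and 268 CPM and was 270.4 to 392 CPM in controls and 389 to 428 CPM in deleted libraries (difference 0.69, adjusted p = 0.00567). The 6 lower calls were 5 or 6 whichever library was left out.

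On the WNT list 11 of 24 genes rose and 6 fell with dose, none passed the threshold after deletion (6 at an unadjusted p below 0.05, 3 by DESeq2), and Wnt5a, Wnt5b, Lrp5 and Dkk3 had a lower difference. Wnt5a, a non-canonical WNT ligand, was 3.97, 4.49 and 4.76 CPM in homozygous and 41.2, 55.4 and 44.4 CPM in heterozygous libraries. It was 5.99, 14.4, 3.07, 8.52 and 2.41 CPM in controls and 9.64, 10.04, 6.37, 7.03 and 6.81 CPM in deleted ones, which overlapped. The difference was -3.08 ± 0.57 (adjusted p = 0.00508). Wnt4, a ligand of thymic epithelium, changed by -0.66 ± 0.05 with dose and -0.57 ± 0.15 after deletion (adjusted p = 0.0834), with no called difference (adjusted p = 0.865). The 4 calls on this list were 1 without homozygous library 3, and 2 without heterozygous library 1 or 3, homozygous library 1 or 2, control library 4, or deleted library 1 or 4. Of 22 transcription factors of thymic epithelium 13 rose and 5 fell with dose, 1 fell after deletion, and Gata3 and Elf5 had a lower difference. Gata3 was 1.12, 1.09 and 0.951 CPM in homozygous and 7.86, 3.800 and 8.63 CPM in heterozygous libraries, with 2.097 to 5.35 CPM in controls and 1.28 to 5.31 CPM in deleted ones (difference -2.81 ± 0.58, adjusted p = 0.00919). Elf5 rested on few reads outside the heterozygous libraries, where it was 1.900 to 4.13 CPM.

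Of 23 tested immediate early and stress kinase genes 17 rose with dose and none fell, none passed edgeR's threshold after deletion without the block (4 at an unadjusted p below 0.05, 0 by DESeq2), and Fos, Fosb, Egr1, Dusp1 and Klf4 had a lower difference. Egr1, a growth factor and stress response gene, was 342, 342 and 193 CPM in homozygous and 1554, 1210.2 and 1044 CPM in heterozygous libraries. It was 1928, 1489.6, 2029, 1783 and 905 CPM in controls and 2465, 1363, 2622, 2219.5 and 1347 CPM in deleted libraries, which overlapped and were above the homozygous level throughout. The changes were 2.00 ± 0.22 and 0.29 ± 0.26 (difference -1.71 ± 0.41, adjusted p = 0.0214). The list medians were 0.464 after deletion and 1.102 with dose. The count of 5 was 0 without heterozygous library 1 or homozygous library 3, 1 without homozygous library 2, and 3 without heterozygous library 2, control library 1, 3 or 4, or deleted library 5. With the replicate block 10 of the 23 were called higher after deletion (17 at an unadjusted p below 0.05) and 12 differences were lower.

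On the extracellular matrix list 14 of 22 genes rose and 5 fell with dose and none passed the threshold after deletion (5 at an unadjusted p below 0.05, 4 by DESeq2). Col1a2 and Dcn had a lower difference and Col4a1, a basement membrane collagen, a higher one. Col1a2, a chain of type I collagen, was 3.69, 4.94 and 3.805 CPM in homozygous and 39.5, 60.6 and 37.9 CPM in heterozygous libraries, which were apart. It was 96.97, 44.99, 44.3, 41.5 and 34.02 CPM in controls and 126, 45.3, 68.99, 61.5 and 122 CPM in deleted libraries, which overlapped (difference -2.67 ± 0.55, adjusted p = 0.00932). The difference of Dcn held in 2 and that of Col4a1 in 5 of the 16 leave-one-out fits. Both Col1a2 and Dcn are also fibroblast markers. On that list 6 of 13 rose and 2 fell with dose, none passed the threshold after deletion (4 at an unadjusted p below 0.05, 1 by DESeq2), and these 2 were the only called differences. The summed fibroblast levels given above were higher in every heterozygous than in every homozygous library. Control and deleted libraries overlapped only by deleted library 3 (975 CPM), which lay below control libraries 1 and 2 (1010 and 1008 CPM). The medians were 811 CPM in controls and 1447 CPM in deleted libraries. The part of fibroblasts in these results was not tested. Of the other marker lists, 4 of 5 tested glial and neural crest markers rose with dose and 2 had a lower difference. Of 9 tested markers of pericytes and smooth muscle 3 rose and 2 fell with dose, and 1 had a higher and 1 a lower difference. Of 12 endothelial markers 3 fell with dose and none had a called or an unadjusted difference by edgeR, though the replicate block called 2. Erythroid markers had no call in the main edgeR fit, while limma-voom called 1 lower with dose. Of 12 macrophage and dendritic cell markers 2 rose and 2 fell with dose and none had a called difference by edgeR, with 4 at an unadjusted p below 0.05 and 3 called by DESeq2. Of the sex-linked transcripts 1 fell with dose. Of 5 tested B cell markers 1, Ebf1, fell with dose and had a higher difference. In the main edgeR fit none of the macrophage, endothelial, pericyte, glial, B cell, erythroid, fibroblast and sex-linked markers passed the threshold after deletion. DESeq2 called 1 pericyte marker lower and 1 fibroblast marker higher after deletion. The replicate block called 1 pericyte marker higher and 2 lower, and 1 fibroblast marker higher and 1 lower. Without control library 2, edgeR called 2 fibroblast markers higher and 1 pericyte marker lower.

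On the list of G protein-coupled receptors and prostanoid genes 9 of 22 rose and 7 fell with dose, and 2 rose and 2 fell after deletion. The differences of the sphingosine 1-phosphate receptors S1pr1 and S1pr3 were higher, and those of Gper1, Ptgs1 and Lgr6 lower. S1pr3 fell with dose from 443, 450.2 and 461 to 174, 174 and 144 CPM and was 160.4 to 308 CPM in controls and 146 to 223 CPM in deleted libraries, which overlapped (difference 1.30 ± 0.27, adjusted p = 0.00993). Of 24 autophagy genes 10 fell and 3 rose with dose and 1 fell after deletion, and the autophagy receptor Sqstm1 and the ATG8 family member Gabarapl1 had a higher difference. Gabarapl1 changed by -1.08 ± 0.07 with dose and 0.23 ± 0.15 after deletion (difference 1.31, adjusted p = 0.0025), and both calls held in all 16 leave-one-out fits. Among 20 p53 targets and apoptosis genes 8 fell and 3 rose with dose, none passed the threshold after deletion (5 at an unadjusted p below 0.05, 1 by DESeq2), and Eda2r alone had a called difference, which held in 2 of the 16 fits.

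Other functions showed no called difference between the changes in the main edgeR fit. For cholesterol biosynthesis the medians of 21 tested genes were -0.32 after deletion and -0.407 with dose, with 12 falls and 1 rise with dose. After deletion 12 cholesterol genes had an unadjusted p below 0.05 and none was called in the main edgeR fit, while DESeq2 called 6 lower and the replicate block 5. The difference had 2 genes at an unadjusted p below 0.05, and DESeq2 called 1. It was called higher in 2 cholesterol genes by the replicate block, limma-voom, the combined standard error and without control library 5. A minimum count of 50, or leaving out heterozygous library 2, gave 1. For oxidative phosphorylation the medians of 22 genes were -0.208 and -0.27, with 19 falls with dose. After deletion 12 of these genes had an unadjusted p below 0.05 and DESeq2 called 3 lower, and the difference had 1 gene at an unadjusted p below 0.05 and none called by DESeq2. The replicate block called 1 fall after deletion. The combined standard error called 1 difference higher, and so did the fit without control library 5. Of 28 cell cycle genes 9 rose with dose, and neither the deletion change nor the difference reached an unadjusted p of 0.05 in any of them in the main edgeR fit. For the difference DESeq2 had 1 and limma-voom 3 at an unadjusted p below 0.05 with no call. The combined standard error called 1 cell cycle gene lower (4 unadjusted) and the replicate block 3 (6 unadjusted), and 5 were under an unadjusted p of 0.05 without deleted library 2. Of 20 heat shock and unfolded protein response genes 5 rose and 5 fell with dose, 2 had an unadjusted p below 0.05 after deletion with 1 called by DESeq2, and for the difference 4 had one and DESeq2 called 2. The replicate block called 4 of the 20 higher and 1 lower after deletion, and 1 difference higher and 3 lower. Limma-voom called 1 difference higher and 2 lower, and the combined standard error 2 higher and 2 lower. These counts do not show that the changes were equal: for Hmgcs1, an early enzyme of cholesterol synthesis, the 95% interval of the difference was -0.69 to 0.54.

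**Figure D3:**
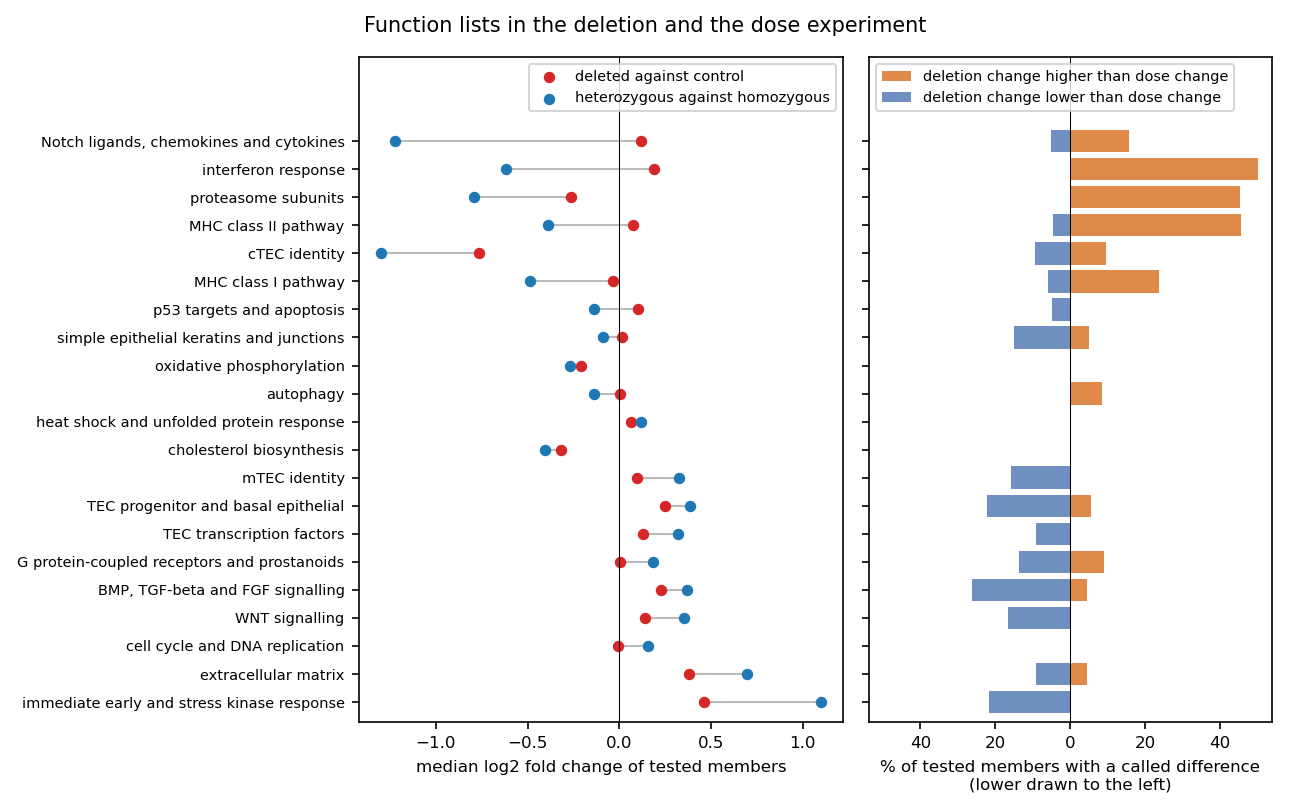
Left, the median log2 fold change of the tested members of each of 21 function lists, in red for Foxn1-deleted against control and in blue for heterozygous against homozygous, joined by a grey line. Right, the percentage of tested members with a called difference between the changes, to the right where the deletion change was the higher and to the left where it was the lower. The proteasome, MHC class II and interferon lists reach furthest to the right, with 14 of 31, 10 of 22 and 11 of 22 members.

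The level of the floxed controls differs from gene to gene and belongs beside these results. On the log2 scale of group mean CPM, controls lay nearer to the heterozygous than to the homozygous transgenic libraries for 234 of the 527 low dose only genes that were higher at the low dose (44.4%) and for 137 of the 454 that were lower (30.2%), against 42.8% of all genes tested. Among all genes that rose with dose this share was 43.1%, and among all that fell 47.4%. Id2 and Col1a2 are genes whose controls lay nearer to the heterozygous libraries, and Otog is one whose controls lay near the homozygous ones. A readout that the classes did not use is the heterozygous minus homozygous change in mTEC, over 2 libraries a group, added after these data were seen. Foxn1 goes against the dose labels there: it was 488 and 502 CPM in the mTEC libraries labelled heterozygous and 307 and 329 CPM in those labelled homozygous (log2 change 0.56, edgeR adjusted p = 0.000108). Directions in mTEC therefore follow the labels and not the counted Foxn1 RNA, which may include RNA of the nude allele. Of the 454 genes lower in cTEC 245 were also lower in mTEC (54%) and 50 higher (11%), where 27.1% and 24.2% of all genes tested were. Of the 527 genes higher in cTEC 166 were higher in mTEC (31.5%) and 180 lower (34.2%). The shares were 38.6% lower and 14.3% higher among all genes that fell with dose in cTEC, and 38.1% higher and 22% lower among all that rose. The cTEC and mTEC libraries may come from the same mice, which the labels do not say.

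Of the 305 genes called after deletion 273 were also called with dose. The deletion only class, which also needs a called difference, held 13 genes, and 10 of them fell. They were Srcin1, Chrna4, Pnpla3, Thrsp, Shisa2, Hddc2, Slc39a11, Eps8, Edn3 and Cdhr3, and the 3 rises were Figf, Naaa and Lama4. Edn3 and Cdhr3 had a mean level below 2 CPM and were named after their values were seen. Srcin1, an adaptor that holds back the kinase Src, stood at 1.33, 1.19, 2.796, 1.86 and 4.47 CPM in controls and 0.185, 0.182, 0.144, 0.138 and 0.386 CPM in deleted libraries, which were apart. It was 4.25, 3.26 and 3.33 CPM in homozygous and 2.28, 2.73 and 3.99 CPM in heterozygous libraries, which overlapped. The changes were -3.50 ± 0.48 (adjusted p = 0.00929) and -0.39 ± 0.22 (adjusted p = 0.171), and their difference was -3.11 ± 0.61 (adjusted p = 0.00706). The class of Srcin1 was lost without 1 library, heterozygous library 3.

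Chrna4, an acetylcholine receptor subunit, was 6.31, 11.8, 14.9, 10.8 and 24.4 CPM in controls and 2.21, 5.29, 3.78, 2.43 and 2.03 CPM in deleted libraries. Its transgenic levels were 49.6, 46.5 and 43.9 CPM in homozygous and 58.8, 51.1 and 77.3 CPM in heterozygous libraries. The dose groups were apart too, and upward, with a change of 0.30 ± 0.13 that missed the threshold (adjusted p = 0.0837) beside -2.14 ± 0.39 after deletion. Shisa2, an inhibitor of WNT and FGF receptor maturation, was 299.7, 232, 363, 329 and 471 CPM in controls and 147, 125, 195, 100.4 and 147 CPM in deleted libraries. It was 670.2, 649 and 646 CPM in homozygous and 783, 716 and 919 CPM in heterozygous libraries, again apart and upward without a call (adjusted p = 0.103). Its deletion change was -1.27 ± 0.22 and its difference -1.45 ± 0.31 (adjusted p = 0.0113). Hddc2, Slc39a11, Eps8 and Cdhr3 had the same pattern of uncalled dose groups that were apart and upward, so these 6 genes differ from the opposite class by the dose threshold alone. Pnpla3 and Thrsp, both linked to lipid storage and synthesis, changed after deletion by -1.83 ± 0.36 and -1.76 ± 0.34, with dose changes of 0.08 ± 0.12 and -0.01 ± 0.17 and overlapping dose groups. Edn3, endothelin 3, changed by -2.21 ± 0.36, and by -0.31 ± 0.22 with dose.

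Of the rises, Naaa, a lysosomal amidase, went from 7.91, 6.97, 5.55, 7.295 and 3.98 CPM in controls to 14.9, 11.00, 9.38, 13.1 and 11.1 CPM in deleted libraries. The transgenic libraries held 3.83, 3.76 and 3.57 CPM and 2.88, 4.08 and 3.12 CPM and overlapped. The changes were 0.89 ± 0.19 and -0.27 ± 0.17, and the difference was 1.16 ± 0.29 (adjusted p = 0.0251). Figf, which encodes the lymphatic growth factor VEGF-D, rose by 1.77 ± 0.35, and its dose change was -0.47 ± 0.25 (difference 2.23 ± 0.51, adjusted p = 0.0164). Lama4, a laminin chain, was 171 to 285 CPM in controls, 312 to 381 CPM in deleted, 206 to 238 CPM in homozygous and 221 to 271 CPM in heterozygous libraries, and only the deletion groups were apart. For 12 of the 13 genes, all but Figf, the 95% interval of the dose change lay within -1 to 1. The class is small and unsteady: it had 31 genes without control library 2, 4 without control library 3, 2, 1 and 2 without deleted library 1, 4 or 5, 5, 8 and 5 without heterozygous library 1, 2 or 3, and 8 and 7 without homozygous library 1 or 3. Hddc2 kept its class in 14 of the 16 fits, lost without deleted library 1 or 4, and Eps8, Lama4, Naaa and Pnpla3 in 2 or 3.

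The 15 opposite genes were of 2 kinds. Col9a1, Igsf21, Map3k7cl, Atp8a2, Pcsk6, Atp2b1, Cpne4, Heyl, Colgalt2, Astn2 and Rps3a1 fell after deletion and rose with the lower dose. Ptpn22, Lmna, Anxa5 and Mppe1 rose after deletion and fell with the lower dose. Col9a1, a chain of type IX collagen, stood at 2.24, 1.46, 2.62, 1.72 and 4.42 CPM in controls and 0.784, 0.593, 0.6702, 0.689 and 1.303 CPM in deleted libraries. It was 1.59, 1.45 and 2.43 CPM in homozygous and 18.1, 17.1 and 21.5 CPM in heterozygous libraries. No groups overlapped, as the naming rule required. The changes were -1.66 ± 0.36 (adjusted p = 0.0447) and 3.25 ± 0.18 (adjusted p = 8.67e-07), and the difference was -4.91 ± 0.50 (adjusted p = 0.000116).

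Pcsk6 is a proprotein convertase that matures growth factors of the TGF-beta family. It was 75.9, 97.6, 85.2, 104 and 96.6 CPM in controls and 57.3, 69.7, 71.9, 66.8 and 45.6 CPM in deleted libraries. It was 102, 105 and 102 CPM in homozygous and 256, 197 and 273 CPM in heterozygous libraries. The changes of -0.58 ± 0.13 and 1.11 ± 0.10 gave a difference of -1.69 ± 0.20 (adjusted p = 0.000249). Map3k7cl changed by -2.42 ± 0.50 and 1.03 ± 0.11, Igsf21, a synaptic adhesion protein, by -2.72 ± 0.55 and 1.10 ± 0.16, and the lipid flippase Atp8a2 by -1.24 ± 0.23 and 0.55 ± 0.13. Atp2b1, a calcium pump of the plasma membrane, was 211 to 335 CPM in controls, 168 to 196 CPM in deleted, 229.9 to 244 CPM in homozygous and 280.4 to 354 CPM in heterozygous libraries. The groups of these 4 genes were apart in both experiments, as the rule that named them required. Heyl, a transcription factor induced by Notch, changed by -1.97 ± 0.38 and 1.51 ± 0.31. Its control library 2 (6.88 CPM) lay below deleted library 3 (6.89 CPM). Control and deleted libraries overlapped by such a pair in Colgalt2, Cpne4 and Astn2 too, so these 4 were named after their values were seen. Rps3a1, a ribosomal protein gene with near-identical copies among which reads may be split, changed by -0.46 ± 0.09 and 0.25 ± 0.05.

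Among the genes of the other direction, Lmna, which encodes the A-type lamins of the nuclear envelope, was 79.8, 79.95, 91.5, 78.8 and 69.9 CPM in controls and 112, 93.9, 109, 125 and 124 CPM in deleted libraries. It was 104, 95.4 and 106 CPM in homozygous and 81.7, 83.3 and 74.4 CPM in heterozygous libraries. All groups were apart, as the naming rule required. The changes of 0.47 ± 0.09 (adjusted p = 0.0344) and -0.48 ± 0.06 (adjusted p = 0.000167) gave a difference of 0.95 ± 0.14 (adjusted p = 0.000986). Anxa5, a membrane-binding annexin, changed by 0.42 ± 0.09 and -0.45 ± 0.06. Ptpn22, a phosphatase known from lymphocytes, changed by 0.42 ± 0.09 and -0.62 ± 0.12, and its level was 63.9 to 81.9 CPM in controls against 16.8 to 22.2 CPM in homozygous libraries. Mppe1 changed by 0.43 ± 0.10 and -0.22 ± 0.08, with overlapping dose groups.

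**Figure D4:**
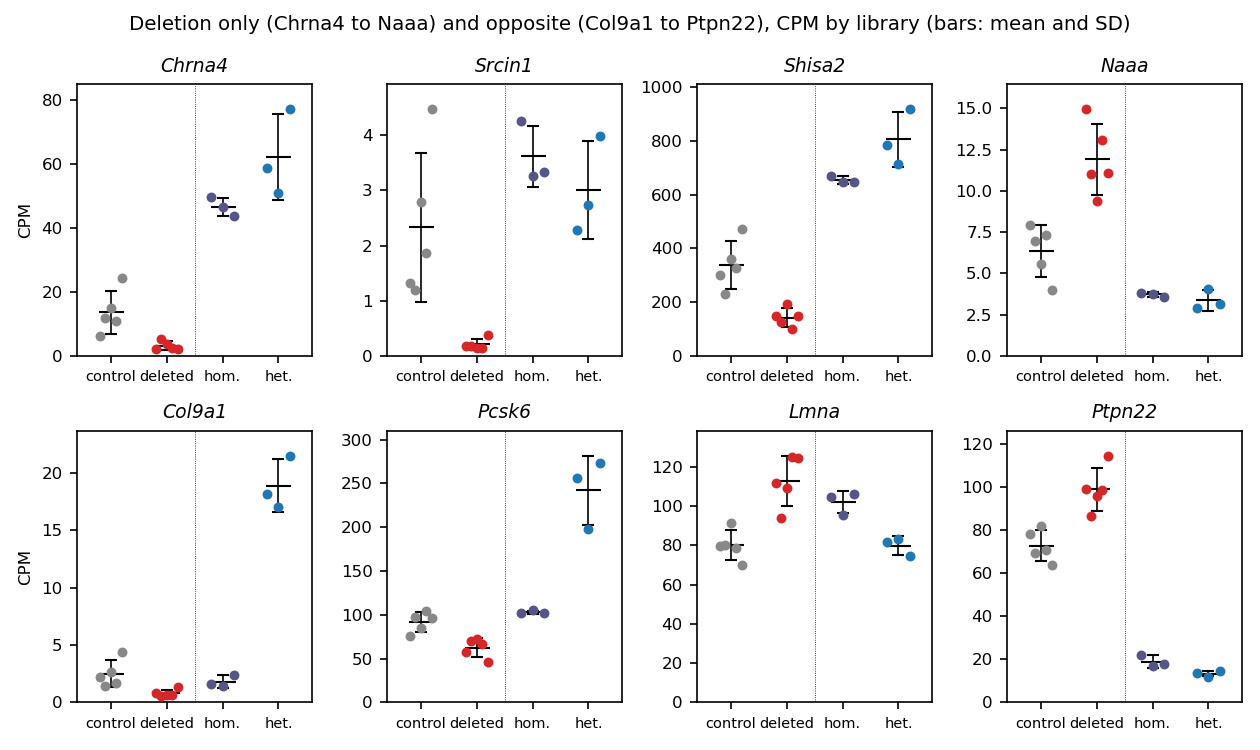
CPM in each library of 4 deletion only genes (Chrna4, Srcin1, Shisa2 and Naaa) and 4 opposite genes (Col9a1, Pcsk6, Lmna and Ptpn22), with control and Foxn1-deleted libraries left of the dotted line and homozygous (hom.) and heterozygous (het.) transgenic libraries right of it. Points are libraries, and bars give the mean and SD. Col9a1 is 17.1 to 21.5 CPM in the heterozygous libraries and at most 1.303 CPM in the deleted ones.

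The difference of the changes was called in every leave-one-out fit for Col9a1, Igsf21, Map3k7cl, Atp8a2, Pcsk6, Atp2b1, Ptpn22, Lmna and Anxa5, while the class, which also needs the deletion call, was lost for each of these 9 when any 1 of at least 6 of the 16 libraries was left out. The opposite class had 37 genes without control library 2, 1 without control library 3, 8 without control library 5, 0 without deleted library 1, 4 or 5, and 5 and 3 without deleted library 2 or 3. It had 62 genes with DESeq2's Wald test, which kept 14 of the 15, and 1 with limma-voom. A looser tier, with a called difference, both unadjusted p-values below 0.05 and both changes of at least 1.5-fold in opposite directions, held 43 genes, 33 down after deletion and 10 up. Of the latter, Ebf1, a transcription factor of B cells and stromal cells, was 5.48, 11.4, 11.4, 6.39 and 6.66 CPM in controls and 9.04, 10.9, 15.6, 14.1 and 22.1 CPM in deleted libraries. It was 3.97, 4.26 and 5.14 CPM in homozygous and 0.6396, 0.185 and 0.413 CPM in heterozygous libraries. The dose groups were apart and the deletion groups overlapped (adjusted p = 0.175), and the difference was 4.30 ± 0.53 (adjusted p = 0.000369). Vegfc, a lymphatic growth factor of the same family as Figf, changed by 0.79 ± 0.25 and -1.65 ± 0.30 (difference 2.44 ± 0.44, adjusted p = 0.00404).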

How the data were processed

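RNA of 16 cTEC libraries in 4 groups was analysed, and 4 mTEC libraries entered an added comparison. The deposited values are raw counts of reads per gene, made by the authors with TopHat2 2.0.10 and featureCounts on mm10 (GRCm38), per the submitters' processing notes. Neither the gene annotation nor whether counting used strand is named there, so reads of overlapping genes, and of near-identical family members such as MHC genes, may be split or lost. Each library held 20719630 to 22372633 counts, and a level near 0 rests on few reads. Libraries were grouped by their column names, and no pair of libraries in a group agreed within sampling noise.

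Counts were fitted with edgeR 4.0.16 (R 4.3.3): TMM factors, a filter on low counts (filterByExpr, minimum count 10, minimum total 15), and two-sided quasi-likelihood tests with Benjamini-Hochberg adjustment over 16115 genes at 0.05. The deletion and dose changes were fitted each on their own libraries, and their difference on all 16 with a spread pooled over both experiments. That pooled spread is an approximation, since the deletion libraries varied more than the transgenic ones (median SE 0.151 against 0.09). The combined standard error below keeps the spread of each experiment. Changes are log2 fold changes with SE, from edgeR with a prior count of 0.125. Levels are CPM on plain library totals, without TMM factors, so ratios of levels can differ from the fitted changes. Where the controls lay between the transgenic groups was read from log2 of group mean CPM plus 0.1. The fit was tried beforehand on simulated counts drawn independently for each library. Such counts lack the deviations that same-numbered libraries shared, so that trial does not cover them.

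The classes, 21 function lists and 9 marker lists were chosen with earlier results of these data known. Genes were named by rule: 8 fixed genes, the 8 low dose only and 8 deletion only genes of largest difference in each direction, 6 opposite genes in each direction and 5 shared genes in each direction, with a mean of at least 2 CPM and no overlap of the called groups, without receptor segments, predicted genes or ribosomal pseudogenes, and up to 2 members of each list per direction. For genes named from a class, called groups that are apart are thus a condition of naming and not a result. Genes beyond the rule were chosen after their values were seen: the remaining members of small classes, uncalled list members and those under other observations. Some genes that the rule or the lists would name are not reported here. Alternatives were DESeq2 1.42.0, limma-voom (limma 3.58.1), other size factors and filters, a combined standard error, a replicate block, the mTEC libraries in the dose fit and leaving out each library. The binding data of the study were not used here.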

Additional observations from a re-analysis of the deposited data

Results flagged for a closer look

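Among 192 groups of 5 libraries examined, for 96 genes, 11 held 1 library far from the other 4 by Dixon's test (a gap of more than 0.71 of the range), where chance gives about 1 in 20. Values were far above the others for Sln in control library 4 (11.06 CPM against 0.492 to 2.87), for Kif19a in the same library (6.842 CPM against 0.134 to 1.46) and for Col1a2 in control library 1 (96.97 CPM against 34.0 to 45.0). The same was true of Slc39a11 in control library 5 (68.75 CPM against 49.1 to 52.8). Among deleted libraries, library 5 stood above the others for Otog (0.917 CPM against 0.323 to 0.431), Col9a1 (1.303 CPM against 0.593 to 0.784) and Srcin1 (0.3861 CPM against 0.138 to 0.185), and library 1 for Elf5 (0.4613 CPM against 0.0965 to 0.192). Values were far below the others for Igsf21 in deleted library 4 (0.09185 CPM against 0.274 to 0.335), Eps8 in control library 1 (62.15 CPM against 75.5 to 80.5) and Sqstm1 in deleted library 2 (196.3 CPM against 269 to 294).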

How the results depend on the processing

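Counts of calls and class sizes stayed within 1.5 times their values with DESeq2 size factors, no normalization factors, no filter, a minimum count of 50, and the mTEC libraries in the dose fit. The tests moved them. DESeq2's Wald test gave 849 higher differences, 1105 deletion calls, 59 deletion only, 62 opposite and 799 shared genes. Limma-voom gave 900 higher and 904 lower differences, 103 deletion calls, 1616 low dose only, 8 deletion only, 1 opposite and 89 shared genes. A standard error combined from the separate fits gave 1475 higher and 1523 lower differences, 2576 low dose only and 22 deletion only genes. Of the 981 low dose only genes 912, 960 and 981 stayed in the class under these 3 tests. Shared genes here include those with a called difference (258).

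The main fit did not take the library numbers as pairs, since no label says that they are and the correlations were mixed. Same-numbered control and deleted libraries deviated together with correlations of 0.563, 0.734, 0.084, 0.323 and 0.435, and transgenic ones with 0.049, 0.042 and 0.044. Of these numbers 4 of 5 and 3 of 3 correlated best with their own, so pairing is not excluded. With the replicate block there were 1165 higher and 1103 lower differences, 1274 deletion calls, 1838 low dose only (906 of the 981 kept), 70 deletion only, 80 opposite and 979 shared genes. The main fit had 305 deletion calls, 13 deletion only and 15 opposite genes, so these counts depend on whether the numbers are taken as pairs. Of deletion calls 86.6% were lower in the main fit, against 71% with DESeq2 and 67.3% with the block.

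Leaving out 1 library at a time gave 49 to 936 deletion calls, 7027 to 8277 dose calls, 280 to 890 higher and 306 to 1031 lower differences, 549 to 1773 low dose only, 1 to 31 deletion only, 0 to 37 opposite and 47 to 792 shared genes. Without normalization factors 6 MHC class II genes, 10 proteasome and 9 interferon genes had a higher difference. No named gene's called difference changed direction under any of these alternatives.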

Other observations

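The genes below were chosen after their values were seen. The imprinted genes Igf2, H19, Meg3, Mest and Rian were among the low dose only genes, a class that holds 6.09% of genes tested. No list of imprinted genes was counted, so this is no result about imprinted genes as a group. The part of fibroblasts in their levels was not tested. Igf2, a fetal growth factor, stood at 0.888, 0.907 and 1.05 CPM in homozygous and 41.3, 101 and 34.2 CPM in heterozygous libraries, against 4.52, 4.42, 3.29, 3.58 and 2.68 CPM in controls and 9.55, 3.42, 7.899, 4.18 and 9.797 CPM in deleted libraries. Its dose change was 5.83 ± 0.53, and the difference from the deletion change was -4.93 ± 0.60 (adjusted p = 0.000336). H19, Meg3, Mest and Rian rose with dose by 4.19, 3.77, 3.63 and 3.33. Heterozygous library 2 was the highest of its group for all 5 genes. Of their control and deleted libraries only those of Meg3 did not overlap, without a call (adjusted p = 0.169).

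The receptors Notch1 and Notch3 and the Notch target Hey2 were low dose only, while Heyl, another Notch target, was opposite. These classes hold 6.09% and 0.0931% of genes tested. No list of Notch genes was counted, so genes chosen by their values give no result about the pathway. Notch3 was 6.498, 5.67 and 5.897 CPM in homozygous and 102, 64.1 and 116 CPM in heterozygous libraries, and 17.9 to 39.5 CPM in controls and 26.7 to 40.05 CPM in deleted libraries, which lay between them. Notch1 changed by 1.59 ± 0.13 with dose and 0.31 ± 0.21 after deletion (difference adjusted p = 0.0225), and Hey2 by 1.45 ± 0.22 and 0.25 ± 0.11 (difference adjusted p = 0.00902). Notch3 is also on the list of pericyte markers, whose sum was 461 to 488 CPM in homozygous and 232 to 257 CPM in heterozygous libraries, and 468 to 939 CPM in controls. The part of other cells in these values was not tested.

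Igfbp5, a binding protein of insulin-like growth factors, was 22.3, 15.4 and 18.5 CPM in homozygous and 1196, 449 and 1323 CPM in heterozygous libraries, and 283 to 776 CPM in controls and 415 to 877 CPM in deleted ones. Its difference was -5.19 ± 0.54 (adjusted p = 0.000116). The collagen cross-linking enzyme Lox and the alarmin Il33 had dose changes of 4.28 ± 0.14 and 3.15 ± 0.21, deletion changes of 0.60 ± 0.40 and 0.14 ± 0.26, and called differences (adjusted p = 0.00283 and 0.000793). The inflammatory caspase Casp4 moved like Casp1, by -1.81 ± 0.13 with dose and 0.10 ± 0.32 after deletion (difference adjusted p = 0.024).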
